A study of Rattus norvegicus with 10 samples.

Results

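The 5 arrays described here form the dose series of calorie restriction (CR) that ended after 1 week, out of 10 muscle arrays in all. They were taken by their titles: the control, 5% CR, 10% CR, 20% CR and 30% CR groups of 1 week, each with 1 array. The other 5 arrays hold the same 5 levels after 1 month and share no array with them. Male Wistar rats, bought at 5 weeks of age, 6 weeks old at the start and housed singly, ate a purified powdered diet of the AIN-93G type. The amount eaten under free feeding was first recorded; control rats were then given all of that amount, and each CR group that amount less its stated percentage. All groups were fasted for 16 h overnight before the gastrocnemius, a mixed-fibre calf muscle, was taken, so the control rats were fasted too. RNA from the 5 rats of a group was combined in 1 pool and hybridised to 1 Affymetrix Rat Genome 230 2.0 array. The differences between rats are therefore averaged out of the data, and no value has a replicate: a p-value rests on the scatter of 5 pools about a straight line, moderated by limma with the scatter of other probe sets of like signal (7.80 prior against 3 residual degrees of freedom), and holds no spread between rats. The question put to these arrays was how strongly each transcript followed the percentage of CR within this duration, and whether its curve was graded, stepped or biphasic.

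Skeletal muscle holds much of the body's protein and takes up much of its glucose. When food is short, glucocorticoids, falling insulin and the nuclear receptors that sense fatty acids move muscle toward fatty acid oxidation and amino acid release. The muscle clock, a feedback loop of activators (BMAL1 and CLOCK) and repressors (PER, CRY and REV-ERB), is set partly by feeding time. The glucocorticoid receptor acts on genes such as Fkbp5, Klf15 and Glul.

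Some properties of the arrays bear on the dose series. In the free-text part of the labels, the control array is said to come from rats fed less and the 5% CR array from rats fed in full, against the titles of both. The titles were used, and results were also computed with these 2 arrays exchanged. By title, some genes picked after their values were seen differed between control and 5% CR in the same direction at both durations. Cish read 178 and 27.6 after 1 week and 176 and 43.7 after 1 month, Per2 37.1 and 167 against 42.0 and 198, and Bmal1 122 and 35.2 against 133 and 22.0. Other genes did not: Glul read 1053 and 947 against 1144 and 1994 on 1 probe set, and Nampt 939 and 895 against 780 and 1187. Genes picked in this way cannot decide between the labels, and the exchange was not tested. The tissue label fitted its markers: 10 of 10 myofibre markers were above the signal limit, and their summed signal lay between 88870 and 97210 on the 5 arrays, with no marker at 0. The 3'/5' signal ratio of GAPDH lay between 1.034 and 1.076, while that of actin was 1.699 on the control array and 1.52, 1.39, 1.555 and 1.235 at 5, 10, 20 and 30% CR. The spiked poly-A controls averaged 128.8 on the control array and 60.26 to 84.66 on the restricted arrays. After 1 month they were likewise higher on the control array, at 163.7 against 129.5 to 139.8 on the restricted arrays. Slow fibre genes stood lower on the control array than on any other, as described further on. The part of these differences in the slopes below was not tested.

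After 1 week, the 5 genes with the smallest p in each direction were Herpud1, Fkbp5, Glul, Sult1a1 and Mn1, which rose, and Maf, Dyrk2, Srebf1, Asb5 and Nmrk2, which fell. The slope is the change in log2 signal per 10 percentage points of CR, and of 15521 probe sets tested by limma, 109 passed at an adjusted p of 0.05, which is 0.702% of them. Of these, 54 rose (0.348% of those tested) and 55 fell (0.354%), with slopes of 0.161 to 1.04 in size. At an unadjusted p under 0.05 the count was 1974 (12.7%). With each array centred on its median, 149 passed, of which 109 rose and 40 fell, so the even split depended on the scaling. With the control and 5% CR arrays exchanged, 5 passed: the 3 probe sets of Glul and those of Arrdc2 and Nr1d1. All 109 kept the sign of the slope, but this was nearly built in. The exchange leaves the 10, 20 and 30% CR arrays in place. The 109 were also chosen by their slope over the same arrays. The kept sign therefore cannot decide between the labels. When each 1-week array was left out in turn, 5 probe sets passed every time: 1 each of Herpud1, Fkbp5, Glul and Maf, and a probe set with no gene name. Without the 20% CR array 11 probe sets passed, without the 30% CR array 16, and without the control array 51. In whole tissue, fewer cells of a type cannot be told apart from less RNA per cell.

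**Figure D1:**
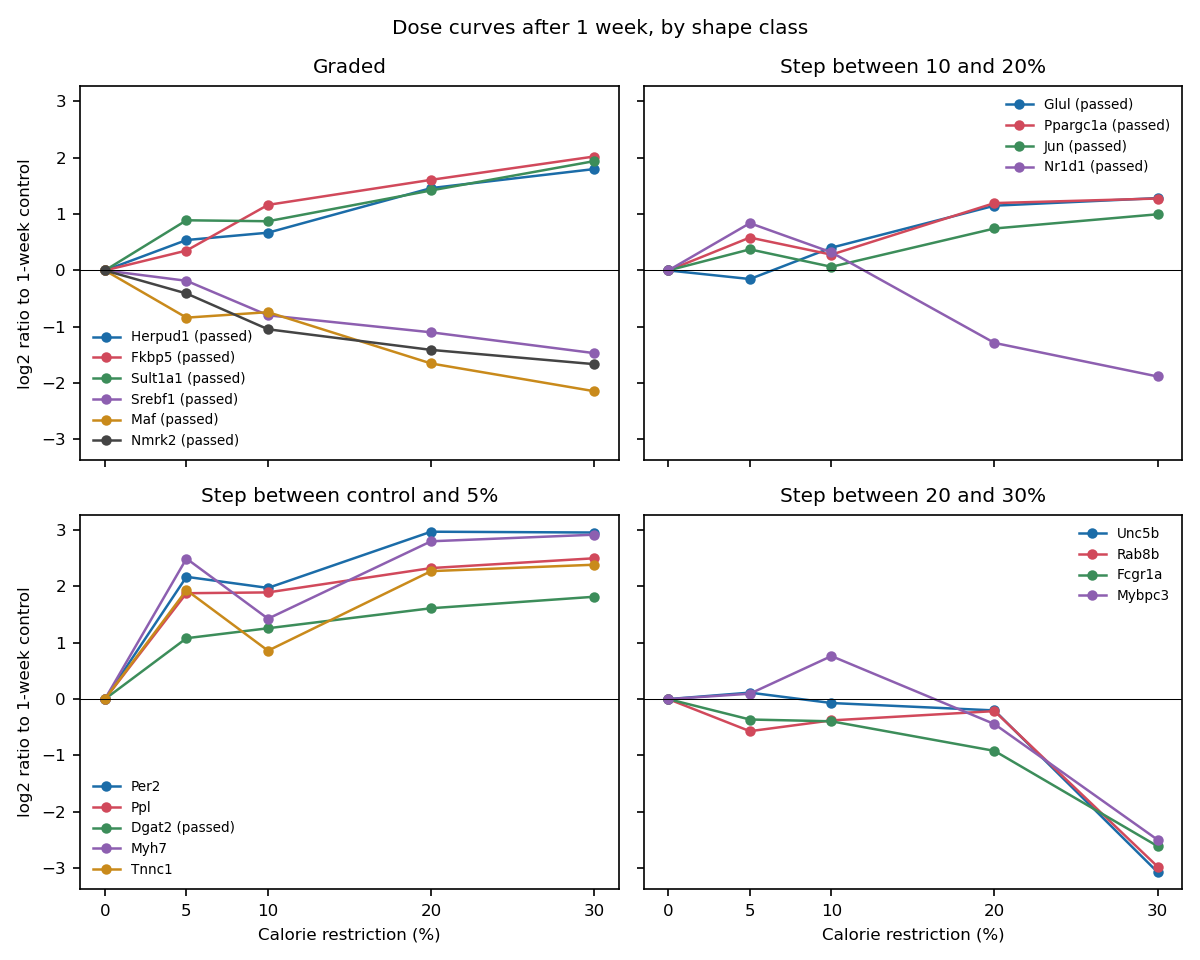
Log2 ratio of signal to the 1-week control array (vertical axis) against the percentage of CR (horizontal axis) for named genes, 1 array per point and no error bars, in 4 panels by shape class. The graded genes move away from 0 at each level or nearly so, while genes such as Per2 reach most of their ratio at 5% CR and Unc5b and Rab8b move mostly at 30% CR; "passed" marks genes whose slope passed limma's test.

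Among the genes that rose, Herpud1, a membrane protein of the endoplasmic reticulum that takes part in the disposal of misfolded proteins, had the smallest p of all. Its signal was 305, 443, 485, 839.6 and 1061 on the control, 5, 10, 20 and 30% CR arrays, the order in which all such series are given here. Each level lay above the one before it, and the 30% CR array was 3.48-fold above the control. The slope was 0.59 ± 0.05 (SE), with an adjusted p of 0.00205 by limma. The other genes of the unfolded protein response did not share this: of 20 such genes and chaperones tested, Herpud1 alone passed, and the median slope of the 20 was -0.01. Hspa5, the main chaperone of the compartment, had a slope of -0.07, and Ddit3, a stress-induced transcription factor, one of 0.11.

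Glucocorticoid-responsive genes held the largest number of passing genes of any list. Of 12 tested, 4 rose (Fkbp5, Glul, Arrdc2 and Sgk1), none fell, and 11 had a positive slope; the median slope was 0.24, against -0.00110 over the 9170 genes tested, of which 37 rose (0.403%) and 34 fell (0.371%). At an unadjusted p under 0.05, 9 of the 12 were positive and 0 negative, beside 6.49% and 6.6% of the 9170. Fkbp5, the co-chaperone that restrains the glucocorticoid receptor, had signals of 88.5, 113, 198, 269.7 and 359 on its steeper probe set. This was a graded series with a slope of 0.68 ± 0.07 (SE) and an adjusted p of 0.00563, and its brighter probe set also passed, with a slope of 0.34. Glul, which makes glutamine from glutamate and ammonia, read 1053, 947, 1393, 2335 and 2564 on 1 probe set. The 5% CR array lay slightly below the control and the step fell between 10 and 20% CR; all 3 probe sets of Glul passed, with slopes of 0.32 to 0.52. Arrdc2, an arrestin-domain gene, read 352, 269, 384, 507 and 761, with a dip at 5% CR and its highest value at 30% CR. Sgk1, a kinase related to AKT, had a slope of 0.27, and Klf15, a glucocorticoid-induced transcription factor counted with the FOXO and atrophy genes, had signals of 265, 274, 257, 358 and 481 and a slope of 0.30 ± 0.05 (SE). Klf15 was flat up to 10% CR and rose above it. Dusp1, a phosphatase induced by the same hormones, had the negative slope (-0.09), and it did not pass.

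Of the core clock genes, Nr1d1 and Bmal1 both fell with the level of CR after 1 week. Nr1d1, which encodes REV-ERBα, the repressor of Bmal1, had signals of 338, 604, 422, 138 and 91.6. The curve was not graded: the 5% CR array was above the control, and the 20 and 30% CR arrays were far below it, giving log2 ratios of 0.84, 0.32, -1.29 and -1.88. The slope was -0.84 ± 0.14 (SE), with an adjusted p of 0.0291, and after 1 month the same probe set read 233, 278, 231, 98.7 and 57.7, again with its step between 10 and 20% CR, and passed there too with a slope of -0.77. Bmal1, the activator, read 122, 35.2, 35.4, 11.7 and 12.5, lower on every restricted array than on the control. Its slope was -1.03 ± 0.19 (SE), with an adjusted p of 0.0426 by limma. Bmal1 lost this pass in 11 of 15 alternatives, among them those without the control, 10%, 20% or 30% CR array. After 1 month Bmal1 read 133, 22.0, 32.1, 32.1 and 47.5, a slope of -0.22 that did not pass. Clock, its partner, had a slope of -0.30 and Nfil3, a repressor at D-box sites, one of -0.41; neither passed. On the opposite arm, Per2 read 37.1, 167, 146, 291 and 288. The 30% CR array was 7.76-fold above the control, but most of the difference was there at 5% CR, and its adjusted p was 0.0798. Per3, Dbp and Per1 had slopes of 0.53, 0.46 and 0.28 and did not pass either. Tef, a D-box activator, and Usp2, a clock-controlled deubiquitinase, each had a probe set that rose, with slopes of 0.37 and 0.43. Of the 12 genes of the PER and D-box arm, by their brightest probe sets, 0 rose by the adjusted test and Nr1d1 fell, with 6 positive at an unadjusted p under 0.05. Of the 4 of the BMAL1 arm, Bmal1 fell.

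The promoters of 3 genes with passing slopes are shown because motifs of their known regulators were found in them; the genes and motifs were chosen after their values were seen. Each sequence runs 5′ to 3′ from 250 bases before to 50 after a RefSeq transcription start in GRCr8, with the motif in capitals. In Nr1d1 the capitals mark the E-box CACGTG, the site of BMAL1 and CLOCK, in the second of the 2 windows listed for the gene (chr10:84229405-84229704, minus strand). In Bmal1 (chr1:176766078-176766377, plus strand) they mark TAGGTCA, an element bound by ROR and REV-ERB receptors, and in Herpud1 (chr19:10614658-10614957, minus strand) the endoplasmic reticulum stress element of type II.
Nr1d1: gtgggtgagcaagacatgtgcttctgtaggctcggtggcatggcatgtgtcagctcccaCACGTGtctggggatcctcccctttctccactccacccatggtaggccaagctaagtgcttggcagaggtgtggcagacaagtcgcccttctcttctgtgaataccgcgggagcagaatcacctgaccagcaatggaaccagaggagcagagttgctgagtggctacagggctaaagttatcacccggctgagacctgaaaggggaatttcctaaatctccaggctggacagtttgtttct
Bmal1: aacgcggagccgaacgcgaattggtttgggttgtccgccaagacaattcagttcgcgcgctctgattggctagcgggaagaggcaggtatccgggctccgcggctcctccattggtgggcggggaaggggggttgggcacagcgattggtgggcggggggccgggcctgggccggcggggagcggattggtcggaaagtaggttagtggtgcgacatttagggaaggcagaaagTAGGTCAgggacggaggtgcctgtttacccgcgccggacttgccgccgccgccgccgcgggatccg
Herpud1: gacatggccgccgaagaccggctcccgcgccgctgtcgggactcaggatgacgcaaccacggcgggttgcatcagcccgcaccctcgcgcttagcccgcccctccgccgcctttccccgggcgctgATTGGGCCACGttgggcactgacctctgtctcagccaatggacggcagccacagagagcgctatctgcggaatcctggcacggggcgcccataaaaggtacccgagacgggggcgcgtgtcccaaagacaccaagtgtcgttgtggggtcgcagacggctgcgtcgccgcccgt
Both strands were searched. Of the 80 genes with a passing slope, 65 had a promoter in the RefSeq table, with 77 windows. The E-box was in 7.79% of these windows and in 6.42% of all 33469, the ROR element in 3.9% against 2.63%, and the type II stress element in 1.3% (Herpud1 alone) against 0.0508%. The cyclic AMP response element TGACGTCA was in 7.79% against 1.83%, in Ankrd13c, Ppargc1a, Rcan1, Skil, Wsb1 and Zfp266. The D-box TTANGTAA was in 1.3% against 2.24%, and the full palindromic glucocorticoid response element in 0.0% against 0.0149%. These are matches of letters in a short window and show no binding. The 33469 windows are all those of the RefSeq table, not only those of genes tested here, so the 2 shares come from unlike sets.

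Genes of lipid storage and fuel choice moved in both directions. G0s2, the inhibitor of the triglyceride lipase ATGL, had the steepest slope of all probe sets, -1.04 ± 0.14 (SE), with signals of 438, 252, 128, 49.1 and 57.3 and an adjusted p of 0.0136. The fall was nearly complete at 20% CR. Srebf1, the transcription factor of fatty acid synthesis, read 549.8, 484, 317, 257 and 199, lower at each level than at the one before, with a slope of -0.50 ± 0.06 (SE) and an adjusted p of 0.00582. Pfkfb3, which makes the activator of phosphofructokinase, read 458, 189, 345, 133 and 103; its 5% CR array lay below its 10% CR array, and its slope was -0.65 ± 0.13 (SE). Against these, Ppargc1a, a coactivator of mitochondrial genes, read 184, 276, 224, 422 and 447, with its step between 10 and 20% CR. Angptl4, an inhibitor of lipoprotein lipase, read 90.3, 104, 122, 134 and 192, a graded rise with a slope of 0.34 ± 0.06 (SE). Dgat2, the last enzyme of triglyceride synthesis, read 130.4, 276, 312, 399 and 459, with over 2-fold already at 5% CR. Plin4, a lipid droplet coat protein, and Slc2a4, the insulin-sensitive glucose transporter GLUT4, rose with slopes of 0.24 and 0.20, and 1 probe set of Pdk4, the kinase that shuts pyruvate dehydrogenase, rose with 0.36. Other probe sets of Pfkfb3, Dgat2, Slc2a4 and Ppargc1a did not pass, with slopes of -0.51, 0.32, 0.21 and 0.24 to 0.32. That of Srebf1 passed, with -0.45. Of 20 genes of fatty acid uptake and β-oxidation, 0 passed by limma. Their median slope was 0.07, 18 of the 20 had a positive slope, beside 4535 of all 9170 genes, and 8 were positive at an unadjusted p under 0.05, beside 6.49% of all. Cd36, the fatty acid transporter, had the largest slope of them, with signals of 555, 871, 985, 1133 and 1214 and an adjusted p of 0.0549. Of 13 cholesterol synthesis genes 0 passed, 1 was positive and 2 were negative at an unadjusted p under 0.05, and the median slope was -0.08.

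Several growth factor and vessel genes fell. Apln, which encodes the peptide apelin, read 114, 66.3, 51.0, 44.4 and 23.0, lower at each level than at the one before, with a slope of -0.67 ± 0.10 (SE) and an adjusted p of 0.016. Its other probe set had a slope of -0.26 and did not pass. Tmem100, an endothelial membrane protein, read 309, 194, 174, 159 and 101, also lower at each level, with its larger drops at 5 and 30% CR. Of 14 angiogenesis genes these 2 fell, 0 rose, and the median slope was -0.11; Kdr, the main VEGF receptor, read 198, 202, 159, 127 and 116 with an adjusted p of 0.0541, while Vegfa had a slope of 0.20. The summed signal of 10 endothelial markers moved in part alongside: it was 1054 on the control array, 1271 at 5%, 1229 at 10%, 1049 at 20% and 939.3 at 30% CR, with 0 of 10 markers passing and none at 0. Kdr and Tek are on both lists. Its part in the vessel genes was not tested. Igfbp5, a binding protein of the insulin-like growth factors, read 1503, 1007, 919.8, 780.0 and 614, and was the 1 gene of 15 in the growth hormone and IGF list that fell, with a slope of -0.38 ± 0.05 (SE). Its 4 other probe sets had slopes of -0.40 to -0.25 and did not pass. Igf1 itself had a slope of -0.28 and did not pass. Cish, a feedback inhibitor of growth hormone signalling, read 178, 27.6, 32.5, 29.8 and 40.4: every restricted array was far below the control and the 4 levels were not in order of dose, and its slope of -0.44 did not pass. Grb10, an adaptor that restrains the insulin receptor, fell from 1879.6 on the control to 1273 at 30% CR, with a slope of -0.17 ± 0.03 (SE). Its 2 other probe sets had slopes of -0.30 and -0.09 and did not pass.

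The falls with the smallest p were those of Maf, Dyrk2, Srebf1, Asb5 and Nmrk2. Maf, a basic leucine zipper transcription factor, read 1374, 768, 822, 437 and 311 and had a slope of -0.67 ± 0.06 (SE) with an adjusted p of 0.00298. The 5 and 10% CR arrays were alike and the 20 and 30% CR arrays lower again; its other 2 probe sets had slopes of -0.43 and -0.39 and did not pass. Dyrk2, a protein kinase, read 654, 475, 484, 284 and 217, with a slope of -0.53 ± 0.05 (SE) and the same adjusted p of 0.00298; 3 of its 4 probe sets passed. Nmrk2, the muscle nicotinamide riboside kinase of NAD salvage, read 1264, 952, 613, 476 and 399 and had a slope of -0.55 ± 0.06 (SE). Nampt, the main enzyme of the same pathway, rose with a slope of 0.19 ± 0.04 (SE), an adjusted p of 0.0466 that was lost in 12 of 16 alternatives, among them each of the 5 that left out a 1-week array (0.0649 without the control). That of Nmrk2 was lost in 4 of 16. These were the 2 passing genes of the 9 tested for NAD salvage. The other probe set of Nampt had a slope of 0.17 and did not pass. Asb5, an ankyrin-repeat protein of muscle, read 679.8, 582, 546, 375 and 322, with a slope of -0.37 ± 0.04 (SE), and its second probe set also fell. Atp1b4, a β-subunit relative of the Na,K-ATPase, read 262, 217, 163, 148 and 129 and fell at each level. Azin1, which protects the first enzyme of polyamine synthesis, read 584, 468, 405, 375 and 326 and fell likewise. Its other probe set had a slope of -0.22 and did not pass.

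Xenobiotic enzymes were among the rises. Sult1a1, a phenol sulfotransferase, read 129, 239.6, 237, 346 and 496, with a slope of 0.57 ± 0.07 (SE) and an adjusted p of 0.00813. The 5 and 10% CR arrays were alike, and the 30% CR array was 3.84-fold above the control. Fmo1, a flavin monooxygenase, read 38.5, 60.6, 65.3, 90.2 and 105, in order of dose, with a slope of 0.44 ± 0.08 (SE). These were the 2 of 17 such enzymes that rose by their brightest probe sets, and 0 fell; 1 probe set of Fmo2 rose with a slope of 0.52. Phlda3, a p53 target that blocks AKT at the membrane, read 189, 304, 378, 590.0 and 583 and rose with a slope of 0.53 ± 0.08 (SE), but it was the 1 gene of 10 p53 targets to do so, and Cdkn1a had a slope of -0.06. Mn1, a transcriptional coregulator, read 187, 287, 379.5, 521 and 605, with a slope of 0.54 ± 0.07 (SE). Fhl3, a LIM protein of muscle, read 1610.3, 2289, 2686, 2966 and 3295, with most of its rise by 10% CR. Nr4a1 and Jun, both immediate-early transcription factors, rose with slopes of 0.26 and 0.33 while the median of their 15-gene list was -0.02. The 2 other probe sets of Jun had slopes of 0.18 and 0.19 and did not pass. Aqp4, the water channel of fast fibres, had a slope of 0.43 and was the last of the 100 largest positive slopes; the next, Zfp503, had 0.42. The corresponding pair at the negative end were Nfil3, at -0.41, and a probe set with no gene name, at -0.41.

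**Figure D2:**
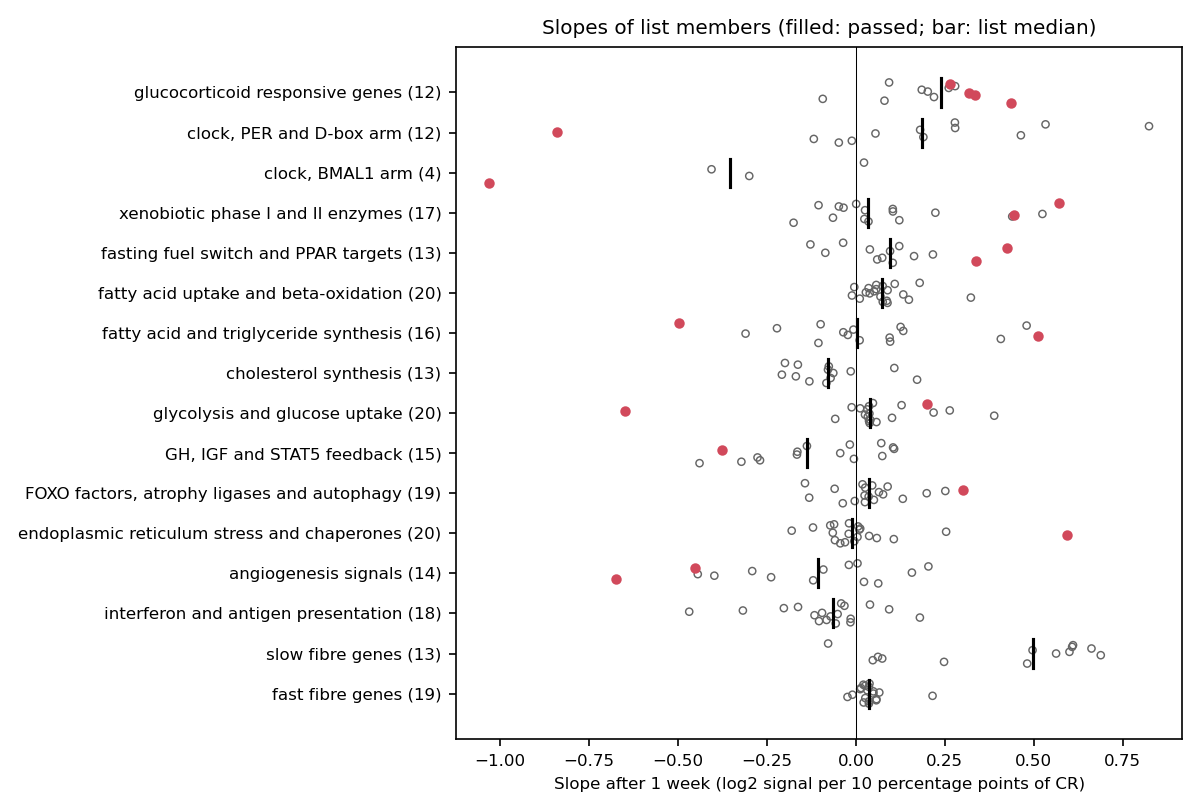
Slope after 1 week in log2 signal per 10 percentage points of CR (horizontal axis) for each tested member of 16 gene lists (rows, number of members in brackets), each gene by its brightest probe set. Filled points passed limma's test and the vertical bar is the list's median; glucocorticoid-responsive genes lie mostly to the right of 0 (median 0.24), and slow fibre genes lie farthest right (median 0.50) without a passing member.

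The lists above were chosen with earlier results of these data known, and their counts describe them. The remaining lists showed still fewer passing genes: of 26 proteasome subunits, 25 respiratory chain genes, 21 collagens and laminins, 19 fast fibre genes, 18 ribosomal proteins, 18 interferon and antigen presentation genes, 18 heat shock proteins, 15 antioxidant genes and 10 mTORC1 brakes, 0 passed by limma. At an unadjusted p under 0.05, where 6.49% of all genes were positive and 6.6% negative, 0 proteasome subunits were found in either direction. The respiratory chain had 6 positive and 0 negative, fast fibre genes 5 and 0, heat shock proteins 5 and 2, ribosomal proteins 3 and 0, antioxidant genes 2 and 0, and mTORC1 brakes 2 and 0. Collagens and laminins had 0 positive and 3 negative, and interferon genes 0 and 2. Median slopes lay between -0.06 for interferon genes and 0.04 for the respiratory chain. Slopes were positive in 22 of 25 respiratory chain genes, 17 of 19 fast fibre genes, 16 of 18 ribosomal proteins and 20 of 26 proteasome subunits. The 18 of 20 for fatty acid uptake and β-oxidation was thus not particular to that list. Positive slopes were found in 8 of 15 antioxidant genes, 5 of 10 mTORC1 brakes, 8 of 18 heat shock proteins, 7 of 21 collagens and laminins and 3 of 18 interferon genes. Over all lists, 30 genes passed, 18 of them upward and 12 downward. Among them, passes were lost in 11 of 16 alternatives for Pfkfb3 and Atp1b4, 10 for Slc2a4, and 9 each for Dgat2, Grb10 and Fhl3. That of Herpud1 was lost in 3. No marker of macrophages, fibroblasts, adipocytes, endothelium, smooth muscle, nerve, red blood cells or satellite cells passed. The summed signal of 15 macrophage markers was 866.7 on the control and 1010 to 1131 on the restricted arrays, and its part in the slopes was not tested.

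Slow fibre genes had the highest median slope of the 44 lists, and none of them passed. Of 13 tested, 12 had a positive slope, 9 at an unadjusted p under 0.05, and the median was 0.50. Myh7, the slow myosin heavy chain, read 132, 742, 354, 918 and 995 on 1 probe set, 7.56-fold higher at 30% CR than on the control. Tnni1, slow troponin I, read 151, 668, 269, 765 and 925. Tnnc1, the slow troponin C, read 308, 1177, 559, 1488 and 1609. In each the 10% CR array fell back toward the control, while 5, 20 and 30% CR were high, so that the order did not follow the dose. The summed signal of the 13 genes was 18580 on the control, 30860 at 5%, 24130 at 10%, 33110 at 20% and 33190 at 30% CR, and none was at 0. Taken over the array median, the control array had a mean log2 signal of 4.84 and the CR arrays of this duration had 5.35 to 6.32. The 5 arrays of 1 month had 5.63 to 5.96, with their control at 5.92. The 1-week control was thus the lowest of the 10 arrays. With this mean as a covariate, 2 residual degrees of freedom remained and no slope passed, all 109 passing slopes kept their sign, and those of Myh7, Tnni1 and Tnnc1, which are part of the covariate, turned to -0.08, -0.08 and -0.05. On the control, 5, 10, 20 and 30% CR arrays the covariate was 4.84, 5.98, 5.35, 6.21 and 6.32. It thus moved largely with dose, and the fit can hardly separate it from dose. Without the 1-week control array the median slope of the list was 0.24. Fast fibre genes, by comparison, had a median slope of 0.04 and summed signals of 163600 on the control and 174500 to 181900 on the restricted arrays. The part of fibre composition in the other slopes was not tested.

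**Figure D3:**
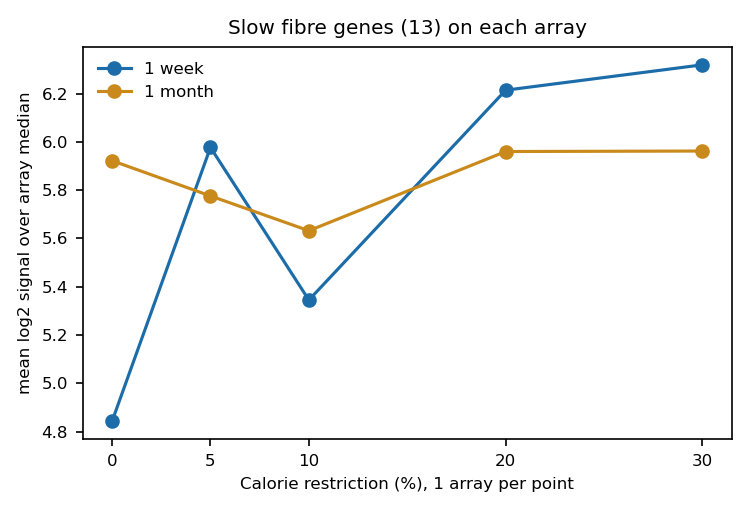
Mean log2 signal of 13 slow fibre genes over the array median (vertical axis, not starting at 0) against the percentage of CR (horizontal axis), 1 array per point, for both durations. The 1-week control lies lowest at 4.84 and the 1-week 10% CR array next at 5.35, while the 1-month arrays stay between 5.63 and 5.96.

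Shapes were assigned from the 4 log2 ratios by a fixed rule, with no test. A curve was biphasic when it first went the other way, or fell back at 30% CR, by at least 0.333 of its range; otherwise it took the best of a straight line (graded) or a single step at 5, 10, 20 or 30% CR. Among the 109 passing probe sets, 97 (88.99%) were graded, 9 stepped between 10 and 20% CR, 2 between control and 5%, and 1 between 5 and 10%, and 0 were biphasic. A straight-line test favours graded curves, so nothing about the muscle can be read from this count. Over all 15521, 7.828% were graded and 59.44% biphasic. Of the 109, 59 (54.13%) rose or fell at every level without a reversal, against 3.66% of all tested. The straight-line test favours such curves too, so the same limit applies.

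**Figure D4:**
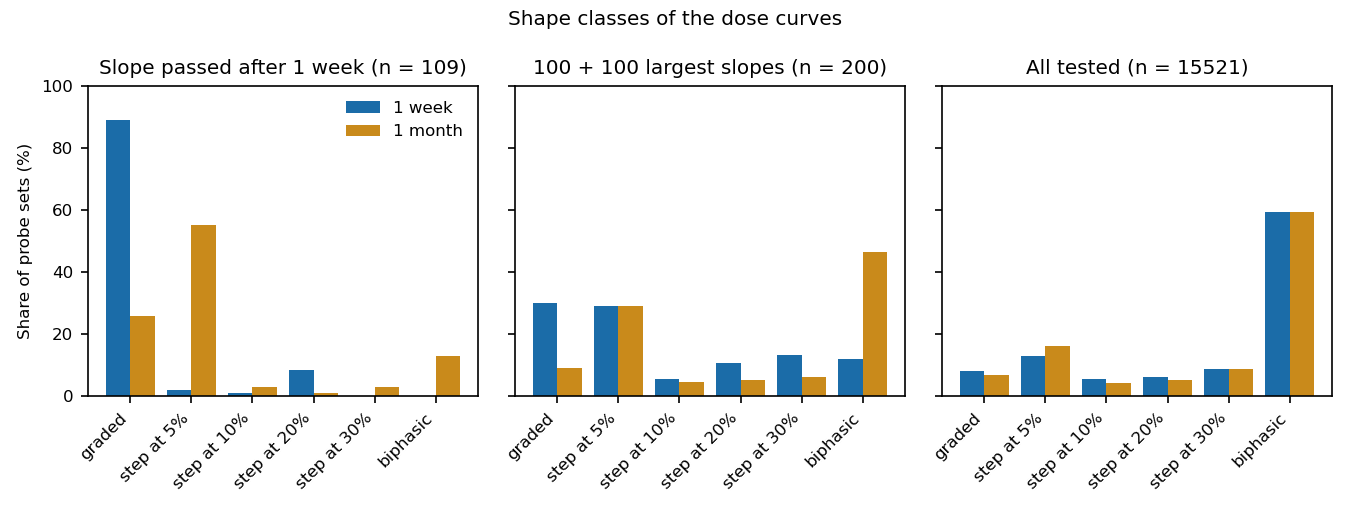
Share of probe sets in each shape class (vertical axis, percent) after 1 week and 1 month for 3 sets: the 109 with a passing 1-week slope, the 200 with the largest 1-week slopes, and all 15521 tested. In the passing set the graded class holds 88.99% after 1 week and 25.69% after 1 month, when the step at 5% CR holds 55.05%; in all tested the classes are nearly alike at both durations.

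The largest slopes had other shapes than the passing ones, and those at the positive end differed from those at the negative end, as a description without a test. Of the 100 largest positive slopes (0.426 to 0.844), 51 stepped between control and 5% CR, 23 were graded, 9 biphasic and 2 stepped between 20 and 30% CR. Of the 100 largest negative slopes (0.406 to 1.04 in size), 37 were graded, 24 stepped between 20 and 30% CR, 15 were biphasic and 7 stepped between control and 5% CR. Only 19 and 25 of them passed. Many were dim: 54 and 65 had a mean signal under 50, against 6 of the 109 passing and 4598 of all 15521. In 22 of the positive set the control was the single array with a signal under 10, beside 41 of all 15521. In 14 of the negative set the 30% CR array was, beside 18 of all. Of the 51 steps between control and 5% CR, 20 had only the control under 10. Of the 24 steps between 20 and 30% CR, 9 had only the 30% CR array under 10. Myh7, Tnni1 and Tnnc1 also counted as steps between control and 5% CR, though their 10% CR arrays fell back toward the control. Tmie, a membrane protein known from hair cells, had the largest positive slope of a named gene and read 4.6, 13.6, 31.9, 27.2 and 38.2, against 23.9, 20.5, 20.7, 18.1 and 19.3 after 1 month. Thrsp, a lipogenic nuclear protein, read 4.6, 22.5, 19.0, 14.2 and 39.8, and the probe set of Lipe, hormone-sensitive lipase, read 5.6, 28.5, 35.8, 44.2 and 37.9. In these 3 the control array alone was below 10. The brighter probe set of Lipe had a slope of -0.19, in the other direction. At the opposite end, Rgs19, a regulator of G protein signalling, read 28.7, 17.0, 36.1, 23.8 and 2.6; Unc5b, a netrin receptor of vessels, read 27.7, 30.0, 26.4, 24.1 and 3.3; and Rab8b, a small GTPase, read 40.8, 27.5, 31.4, 35.2 and 5.2. Here 1 array, that of 30% CR, carried the slope: without it the slope of Rgs19 was 0.01. The other 2 probe sets of Rab8b had slopes of -0.13 and 0.08, and the brighter probe set of Atf6 had -0.04 against -0.68 for its steeper one. None of these passed.

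Of the 200 largest slopes, 24 (12%) had biphasic curves, beside 59.44% of all tested. A reversal lowers the slope by which the 200 were picked, so a low count is built in. In 17 of the 24 the curve first went the other way and in 7 it fell back at 30% CR. Ddit4, an inhibitor of mTORC1 induced by fasting and glucocorticoids, was the brightest named case and read 275, 89.6, 145, 188 and 475, the lowest value at 5% CR and the highest at 30% CR. After 1 month the same probe set read 269, 226, 297, 447 and 529, low at 5% CR again but by less, and its slope there was 0.40 against 0.43 after 1 week. Without the 1-week 30% CR array its slope was -0.06. Nif3l1 read 21.0, 18.0, 3.5, 38.5 and 44.0, with its single low value at 10% CR, while its other probe set had a slope of -0.04. The term for curvature, the quadratic term orthogonal to the line, passed for 0 of 15521 probe sets by limma (0.0%), and 802 had an unadjusted p under 0.05 (5.17%). Among the 109, 22 (20.18%) did, of which 21 in the direction of a curve that flattens with dose, beside 452 of the 802 over all tested. Mn1, Phlda3 and Fhl3 were of this kind, with unadjusted curvature p of 0.00387, 0.000879 and 0.00713 by limma. Curvature is part of the scatter about the line by which the 109 were chosen, so the 20.18% is not independent of that choice.

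The 1-month arrays, which the 1-week slopes did not use, gave most of the 109 probe sets smaller slopes, and 60 of them (55.05%) stepped between control and 5% CR there, beside 16.22% of all tested. Of the 109 passing probe sets, 105 (96.33%) had a slope of the same sign after 1 month, against 58.4% of all tested. These were 53 of the 54 rises, beside 57.7% of all positive slopes, and 52 of the 55 falls, beside 59.0% of all negative ones. After 1 month 72 of the 109 had the same sign and an unadjusted p under 0.05, a level that 8.92% of all tested reached in either direction; without the 1-month control array the count was 46. Only 2 passed at an adjusted p, Nr1d1 and 1 probe set of Pfkfb3, out of 6 that passed after 1 month (0.0387% of those tested). The slope was smaller in size after 1 month in 97 of the 109; the medians were 0.36 and 0.20 for the rises and -0.39 and -0.29 for the falls. The probe sets were chosen on their 1-week slopes, so some loss is built into the comparison. Rats of the 1-month groups were also older when sampled, so duration and age cannot be told apart. By limma's test of the difference between durations, 0 probe sets passed (0.0%), and 940 (6.06%) had an unadjusted p under 0.05. Of the 200 largest slopes, dimmer as a set, 144 (72%) kept their sign.

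The median curves of the passing probe sets follow. In the 54 rises the median log2 ratio at 5, 10, 20 and 30% CR was 0.33, 0.42, 0.74 and 1.11 after 1 week and 0.61, 0.65, 0.62 and 0.85 after 1 month. In the 55 falls it was -0.37, -0.55, -0.94 and -1.15 after 1 week and -0.64, -0.79, -0.81 and -1.15 after 1 month. The probe sets were chosen by a straight line through their 1-week values, which holds their 1-week curve near straight and leaves the 1-month curve free, so the contrast in shape between durations is a description. At 5% CR, 11 of 109 (10.09%) had reached at least 50% of their 30% CR log2 ratio after 1 week and 79 (72.48%) after 1 month, against 47.96% and 54.97% of all tested, and the same limit applies. Srebf1 was an example: it read 799, 346, 344, 294 and 316 after 1 month, with nearly the whole fall at 5% CR. Dyrk2 read 661, 246, 221, 247 and 260.1 and Maf 1272, 528, 509, 499 and 415, both with the step between control and 5% CR. Herpud1 read 544, 820.1, 987, 1022 and 1276 and stayed graded, as did Fkbp5, at 151, 234, 259, 294 and 372. All 1-month ratios rest on 1 control array: without it, 87 of the 109 kept the sign of the slope and the median slopes were 0.09 for the rises and -0.13 for the falls.

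**Figure D5:**
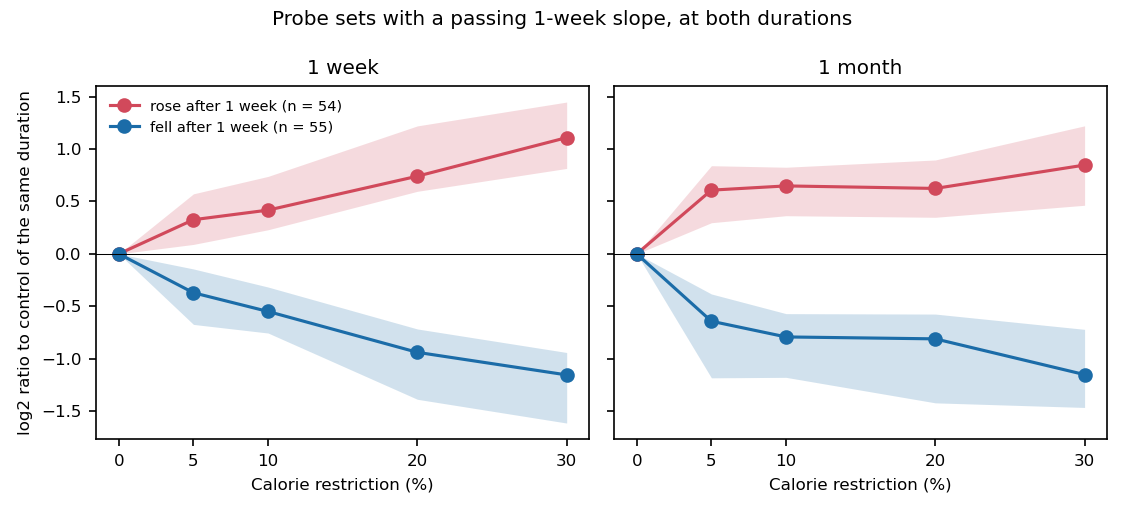
Median log2 ratio to the control of that duration (line) with the middle 50% of probe sets (band) against the percentage of CR, for the 54 probe sets that rose and the 55 that fell after 1 week. After 1 week the medians spread steadily to 1.11 and -1.15 at 30% CR, and after 1 month they stand at 0.61 and -0.64 at 5% CR already.

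A few passing probe sets had a slope near 0 after 1 month. The steeper probe set of Asb5 read 461, 463, 382, 485 and 474 after 1 month, a slope of 0.03; its test of the difference had an unadjusted p of 3.62e-05 and an adjusted p of 0.562 by limma. The brighter probe set of Asb5 read 743, 664, 584, 632 and 575, a slope of -0.10 against -0.19 after 1 week. Aqp4 had a slope of -0.01 after 1 month against 0.43 after 1 week, Camk2a, a calcium-dependent kinase, 0.01 against -0.30, and Ankrd13c 0.01 against -0.37. None of these differences passed. In the other direction, Atp1b4 and Angptl4 had larger slopes after 1 month, -0.67 and 0.54, than after 1 week, -0.33 and 0.34, and those differences did not pass either.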

How the data were processed

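The authors extracted RNA from gastrocnemius, pooled it over the 5 rats of a group and hybridised 1 array per group. Per the labels, MAS5 made the deposited values, which are linear signal intensities scaled on each array; the deposited table holds no detection or change calls. The trimmed mean signal was 99.64 on every 1-week array and 86.44 on every 1-month array. The number of arrays, 1 per group, limits the precision.

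Signals under 0.1 were set to 0.1 and converted to log2. After removal of 57 control probe sets, those with a mean log2 signal over the 10 arrays at or above the 50th percentile (a signal of 17.8) were tested, 15521 in all. In R 4.3.3, lmFit and eBayes (trend on) of limma 3.58.1 gave each slope and its p, which was then adjusted (Benjamini-Hochberg, threshold 0.05). Residual degrees of freedom were 3 for each slope, 2 for curvature (the quadratic term orthogonal to the line) and 6 for the difference between durations. Summaries used Python 3.11.15, pandas 2.3.3, numpy 2.4.6 and scipy 1.17.1, and the fits were tested on simulated data.

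Of 31099 probe sets, 20826 carried 1 gene in the platform annotation, 436 several and 9837 none (controls included), and 20758 of the first were matched to the RefSeq table (GRCr8). For gene lists (44, with 711 entries, of which 67 had no probe set of their own) a gene was its brightest probe set. Genes were named by a rule: the 14 largest slopes in each direction, the 5 smallest p in each direction, the 3 strongest curvatures of each sign among the 200 largest slopes, and up to 3 passing members of each list or otherwise the member with the smallest p. Other genes in the text were chosen after their values were seen. The members, lists and tests were chosen with earlier results of these data known.

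Alternatives were other normalizations and filters, a signal offset of 32, no variance trend, the rank of the level, exchanged arrays, a slow fibre covariate and leaving out each array.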

Additional observations from a re-analysis of the deposited data

Results flagged for a closer look

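Among the 82 genes named by the rule, 4 had log2 ratios to the control of one sign at all 4 levels after 1 week and of the opposite sign after 1 month. So did 1346 of the 15521 probe sets tested (8.67%), 13 of the 200 with the largest slopes and 0 of the 109 passing. The difference between the slopes, 1 month minus 1 week in log2 signal per 10 percentage points of CR, was -0.942 for Tmie, 0.952 for Fcgr1a, 0.822 for Snx18 and -0.0956 for Myl11. Tmie was higher on all restricted arrays after 1 week and lower after 1 month, and so was Myl11, a fast myosin light chain. Fcgr1a, an immunoglobulin receptor of macrophages, and Snx18, a sorting nexin, were lower after 1 week and higher after 1 month. Limma's test of the difference gave adjusted p-values above 0.05 for all 4, as for every probe set tested. Of these genes, Tmie had its lowest signal on the 1-week control array, and Fcgr1a and Snx18 on the 1-week 30% CR array.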

How the results depend on the processing

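No paired analysis was possible because each group has 1 array and the labels give no replicate numbers. The 109 passing slopes after 1 week became 58 without a signal filter, 191 with the rank of the level, 5 with the control and 5% CR arrays exchanged, and 0 without the variance trend or with the slow fibre covariate. Leaving out 1 array gave 11 to 186, with 186 without the 5% CR array. Curvature gave 0 to 10 passing, with 10 without the 5% CR array, an alternative chosen after seeing the data. The 6 passing slopes after 1 month became 0 without the variance trend and 0 to 51 when 1 array was left out: 51 without the control, 18 without 5% CR and 0 without 20% or 30% CR. The difference between durations gave 0 to 2, with 2 without the 1-month control. The graded share of the 200 largest slopes, 30%, was 22% without a filter, 50.5% with a 70th percentile filter, 47% with the offset of 32 and 19% with exchanged arrays. The same-sign share after 1 month, 72%, was 62% without the 1-week control and 62% to 77% when 1 array was left out. Passing list members numbered 30, 3 with exchanged arrays, and 4 to 49 with 1 array left out (16 without the control, 49 without 5% CR, 4 without 20% or 30% CR).

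Slopes turned sign with the slow fibre covariate for Myh7 (-0.0780), Tnni1 (-0.0827), Tnnc1 (-0.0499), Rac3 (-0.42), Tfdp2 (-0.34) and Cish (0.34). When 1 array was left out, slopes ranged from -0.33 to 1.16 for Rac3, -0.22 to 0.94 for Tfdp2 and -1.004 to 0.18 for Cish, each turning without the 1-week control. They ranged from -1.17 to 0.00953 for Rgs19 and -0.0600 to 0.89 for Ddit4, each turning without the 1-week 30% CR array. The cause was not tested. The median slope of all tested was -0.0043, and 0.0221 with median centring; the median height of the curve over the line at 10% CR was 0.006 and -0.0511.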

Other observations

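Other passing genes belonged to no list described above. Il15, a cytokine made by muscle, rose with a slope of 0.38 log2 units per 10 percentage points of CR, and Adarb1, an RNA-editing deaminase, with 0.42. Tfrc, the transferrin receptor, fell with -0.21, Gatm, the first enzyme of creatine synthesis, with -0.34, and Rcan1, an inhibitor of calcineurin, with -0.28. The adjusted p-values by limma were 0.030, 0.039, 0.026, 0.022 and 0.029, and all 5 genes had a 1-month slope of the same sign (0.37, 0.24, -0.36, -0.37 and -0.28).

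After 1 month, 2 probe sets of Pfkfb3, Nr1d1, Lyve1 (a receptor of lymphatic vessels and some macrophages), Cebpb (a transcription factor of fasting and inflammation) and a probe set with no gene name passed. Lyve1 and Cebpb had slopes of 0.44 and 0.37 there, against 0.30 and 0.23 after 1 week, when neither passed.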
